A study of Mus musculus with 103 samples.

Results

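The Pax genes encode transcription factors that pattern the embryonic brain, sense organs, neural crest and skeleton, and they were followed here through 22 sampled regions of the early mouse head. The members are Pax1, Pax2, Pax3, Pax5, Pax6, Pax7, Pax8 and Pax9, taken by gene symbol, and they are 8 of the 19938 genes tested. Each was read by 1 probe set (a group of oligonucleotides on the array for 1 gene) that carries no other symbol. They lie on chromosomes 2 (Pax1, Pax6 and Pax8), 19 (Pax2), 1 (Pax3), 4 (Pax5 and Pax7) and 12 (Pax9).

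The series is an expression atlas of the developing face, made from outbred CD1 mouse embryos, with the day of the vaginal plug counted as E0.5. Embryos were frozen and sectioned, regions were dissected from the sections with a laser, and their amplified RNA was hybridised to Affymetrix Mouse Gene ST arrays. The labels name no mutation, transgene or treatment in any group, and all but 1 of 103 libraries fall into 22 groups of 4 to 7. The exception is an E9.5 library whose title and tissue label disagree.

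At E8.5 there were 4 groups and 18 libraries, namely caudal neural epithelium, floor plate, the rest of the neural epithelium (non-floor plate) and mesenchyme. At E9.5 there were 6 groups and 34 libraries, from cranial mesenchyme, epidermal ectoderm, mandibular arch, maxillary arch, neuroepithelium and otic vesicle. At E10.5 there were 12 groups and 50 libraries. They came from the lateral and medial nasal prominences, the mandibular and maxillary arches and the ectoderm of each arch, the olfactory pit, Rathke's pouch (the pituitary rudiment), and 4 places in the neuroepithelium. These 4 places were the midline, the parts underneath the lateral and the medial nasal prominence, and a control part not next to the prominences. The labels do not tie libraries to embryos, so p-values measure the spread between libraries, some of which may share an animal, and they may then be too small.

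All Pax proteins bind DNA through the paired domain, and the vertebrate genes fall into subfamilies of similar proteins, Pax1 with Pax9, Pax2 with Pax5 and Pax8, Pax3 with Pax7, and Pax6 with Pax4. Pax6 is required for eye, nose and forebrain formation. Pax2, Pax5 and Pax8 act at the boundary of midbrain and hindbrain and, for Pax2 and Pax8, in the ear. Pax3 and Pax7 mark the dorsal neural tube and neural crest, and Pax1 and Pax9 act in the pharyngeal pouches, the vertebral column and, for Pax9, the teeth and palate. In many of these places Pax genes work in a network with the Six-Eya-Dach gene families.

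The 250 bases before the transcription start are shown for Pax6, Pax8 and Pax9, the members with the steepest regional differences below, to give the DNA next to the genes whose RNA was measured. They come from RefSeq on build GRCm38.p6, 5′ to 3′ on the gene's strand, with each CG dinucleotide in capitals. RefSeq lists more than 1 start for Pax6, and windows of starts 1 and 2 are given. The arrays read no signal at these windows.
Pax6, start 1: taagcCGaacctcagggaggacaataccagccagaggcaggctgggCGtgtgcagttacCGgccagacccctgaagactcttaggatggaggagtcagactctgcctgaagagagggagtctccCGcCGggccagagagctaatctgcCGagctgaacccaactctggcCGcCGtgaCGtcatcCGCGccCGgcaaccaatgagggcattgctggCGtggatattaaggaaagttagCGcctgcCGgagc
Pax6, start 2: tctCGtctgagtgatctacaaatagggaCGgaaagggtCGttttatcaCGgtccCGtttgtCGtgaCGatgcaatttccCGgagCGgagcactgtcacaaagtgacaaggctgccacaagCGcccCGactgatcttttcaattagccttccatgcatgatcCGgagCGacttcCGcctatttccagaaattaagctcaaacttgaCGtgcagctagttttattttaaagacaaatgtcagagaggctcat
Pax8: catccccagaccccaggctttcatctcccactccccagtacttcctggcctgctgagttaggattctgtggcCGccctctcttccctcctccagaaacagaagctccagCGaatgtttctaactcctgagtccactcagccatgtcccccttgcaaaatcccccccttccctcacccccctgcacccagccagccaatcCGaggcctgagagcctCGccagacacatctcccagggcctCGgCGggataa
Pax9: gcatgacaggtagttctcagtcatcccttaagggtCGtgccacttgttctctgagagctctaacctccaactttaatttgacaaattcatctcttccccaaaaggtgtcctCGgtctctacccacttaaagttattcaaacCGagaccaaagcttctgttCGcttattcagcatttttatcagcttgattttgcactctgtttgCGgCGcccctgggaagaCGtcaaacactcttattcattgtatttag
The Pax6 windows lie at chr2:105668646-105668895 and chr2:105682213-105682462 on the plus strand, that of Pax8 at chr2:24475600-24475849 on the minus strand and that of Pax9 at chr12:56695221-56695470 on the plus strand. Both Pax6 windows hold 15 CG, against 6 for Pax8, 7 for Pax9 and a median of 6 over 32851 RefSeq windows of the same length. Windows were found for 7 of the 8 members. None of those windows holds TATAAA, the core of a TATA box, on either strand, and 12.4% of all windows do. None holds TAATTA, a core bound by many homeodomain proteins, which 4.84% of all windows hold. These counts describe the letters and say nothing of which factors bind there.

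Values are log2 of the deposited ratio to a baseline. For every probe set the median over 21 libraries from 19 groups is a ratio of 1, so a log2 ratio of 0 is the gene's own baseline and a log2 ratio of 1 is 2-fold above it. The baseline differs between genes, and the levels of different Pax genes cannot be set against each other. In dissected tissue a lower value can mean fewer cells that express a gene or less RNA per cell, and these cannot be told apart.

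Some libraries stood apart. In 11 arrays the log2 ratios of all genes had an SD over 0.85. The medians of Pax1, Pax2, Pax5, Pax7, Pax8 and Pax9 were higher in these 11 arrays than in the others (for Pax1 0.44 against 0.00, for Pax5 0.42 against 0.02), which was not seen for Pax3 (0.01 against 0.04) or Pax6 (-0.25 against -0.04). Markers put the labels of 3 groups at E10.5 in doubt. Libraries labelled mandibular arch had log2 ratios of Alx1, a gene of nasal mesenchyme, of 5.12 to 5.71, as in the lateral nasal prominence (4.69 to 5.71), and of Hand2, a marker of the distal mandibular arch, of only -0.51 to 0.14. Libraries labelled mandibular arch ectoderm had Hand2 at 1.42 to 3.48 and a mean of 10 surface ectoderm markers of -0.42 to 0.08. In the group labelled maxillary arch, replicates 1 to 4 had the epithelial gene Epcam at 2.40 to 3.59 and replicate 5 had it at -1.44. Epcam also exceeded a log2 ratio of 1 in 3 of the 4 libraries labelled mandibular arch (highest 2.00). It did so too in 3 of the 4 midline neuroepithelium libraries (highest 2.06). Hand2 ran from 0.12 to 2.13 in the 5 libraries labelled maxillary arch and exceeded 1 in 2 of them. The 3 groups with labels in doubt are named below by their labels only. The arrays of replicates 1 and 3 labelled mandibular arch ectoderm also resembled each other more than any other pair did (r = 0.95 over genes, next pair 0.85).

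Pax6 varied far more than the rest of the family. It exceeded a log2 ratio of 1 in 34 libraries, spread over 11 of the 22 groups, and its SD over libraries was larger than that of 99.7% of genes. Pax3 did so in 12 libraries of 5 groups, Pax8 in 8 of 3 groups and Pax9 in 8 of 5 groups, and their SDs were larger than those of 70.4%, 77.4% and 64.6% of genes. The remaining members exceeded it in 5 libraries for Pax1, 2 for Pax5 and 0 for both Pax2 and Pax7, with SDs larger than those of 53.1%, 41.7%, 38.0% and 41.4% of genes. Between subfamily partners, the correlation of the 22 group means was 0.28 for Pax1 with Pax9, 0.21 for Pax3 with Pax7, 0.69 for Pax2 with Pax5, 0.49 for Pax5 with Pax8 and 0.11 for Pax2 with Pax8. These values are given as a description, since both genes of a pair were read on the same arrays. The closest pair was Pax1 with Pax2, at 0.78, both of which were high in the widely spread arrays.

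**Figure D1:**
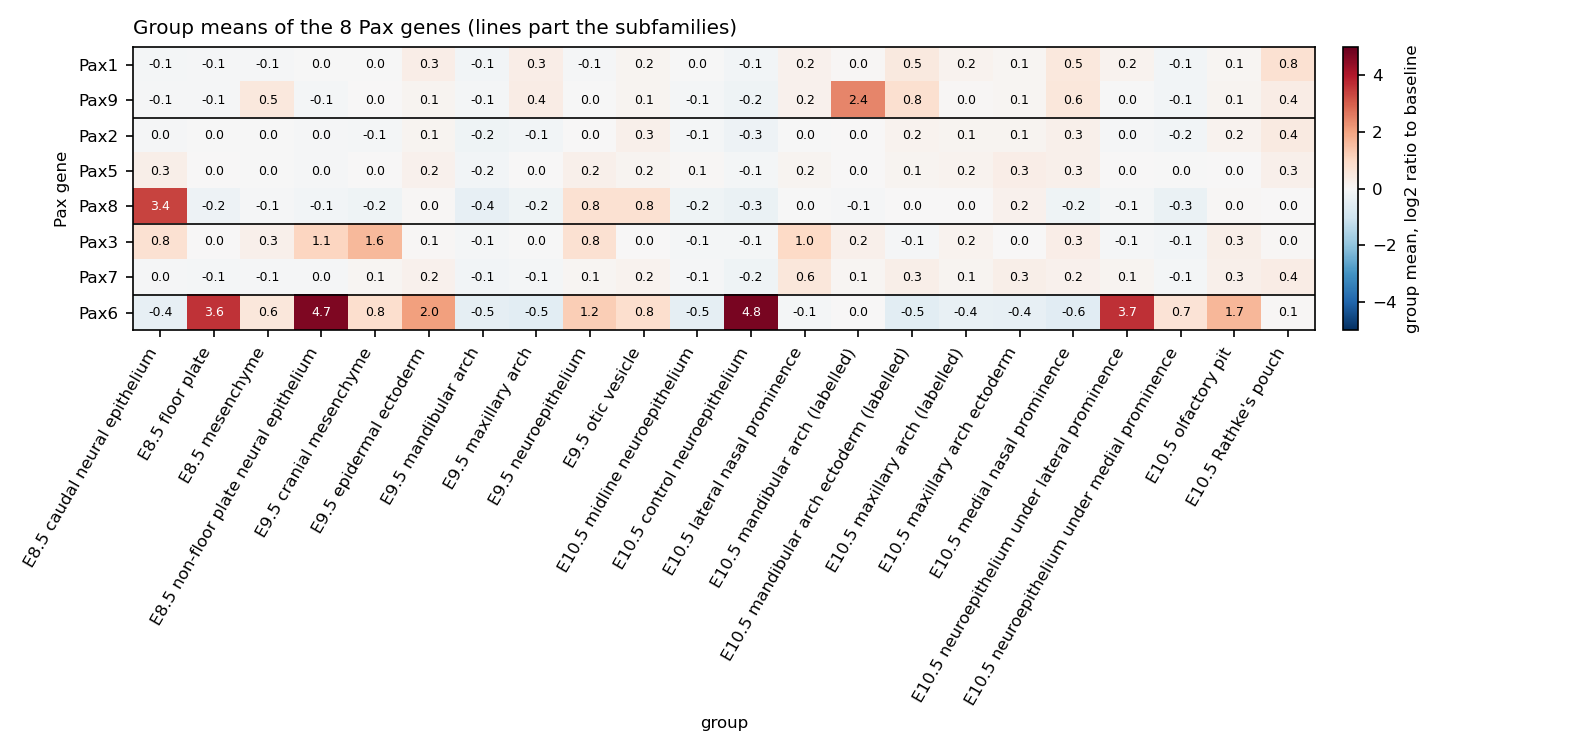
Group means of the log2 ratio to baseline (colour and number) for the 8 Pax genes, in rows parted by subfamily, over the 22 groups in columns. Pax6 reached 4.7 and 4.8 in the E8.5 non-floor plate neural epithelium and the E10.5 control neuroepithelium, Pax8 reached 3.4 in the E8.5 caudal neural epithelium and Pax9 reached 2.4 in the libraries labelled E10.5 mandibular arch.

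Differences between groups were tested with limma over all 19938 genes, and "called" below means a p under 0.05 after Benjamini-Hochberg adjustment. Over 23 comparisons, 19 of the 184 pairs of a Pax gene and a comparison were called, 8 of them for Pax6, 3 each for Pax3 and Pax9, 2 each for Pax7 and Pax8, 1 for Pax2 and 0 for Pax1 and Pax5. In 10 of the 19 the libraries of both sides did not overlap. The share of all genes whose libraries did not overlap is given with each. No Pax gene was called in 12 comparisons. Several comparisons share groups, among them the E8.5 non-floor plate neural epithelium, the E9.5 cranial mesenchyme and the E10.5 control neuroepithelium, so their results are not independent.

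At E8.5 Pax6 divided the neural plate. Log2 ratios in the 5 non-floor plate neural epithelium libraries were 4.72, 4.62, 4.61, 4.59 and 4.79, and in the 4 caudal neural epithelium libraries -0.33, -0.63, -0.32 and -0.40. Every non-floor plate library stood far above every caudal one, and 5.71% of all genes had sides that did not overlap. Pax6 was 34.0-fold lower in caudal neural epithelium (-5.09 ± 0.70 log2, SE; limma adjusted p = 1.7e-07). It was 1 of 2 members called in this comparison, the other being Pax8, against 1.41% of all genes. In the floor plate, the ventral midline of the neural tube, Pax6 log2 ratios were 3.78, 3.53, 3.95 and 3.22, all below those of the non-floor plate libraries (1.94% of genes did not overlap), but the difference did not pass the test, and no Pax gene was called there (lowest adjusted p = 0.481, against 0.181% of genes called).

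Some eye and forebrain genes were also lower in the caudal epithelium. Of 11 measured genes of an eye and olfactory list, 3 fell and 0 rose, with a list median of -0.47 against 0.02 for all genes. They were Rax, which specifies the eye field (-4.84 ± 0.66, adjusted p = 1.3e-07), Lhx2, which forms the optic vesicle (-3.31 ± 0.61, adjusted p = 0.00022), and Six3, a forebrain and lens factor (-2.90 ± 0.45, adjusted p = 4e-06). Of 11 measured Six-Eya-Dach genes, Six3 and Eya2 (-1.28 ± 0.29, adjusted p = 0.00444) fell and 0 rose, with a list median of -0.15.

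E8.5 mesenchyme held Pax6 in some libraries and not in others. Its log2 ratios were 1.74, -0.59, -0.40, 2.47 and -0.38, so that replicates 1 and 4 lay well above the other 3. Against the 3 neural groups as 1 side, Pax6 was 4.15-fold lower in mesenchyme (-2.05 ± 0.55, limma adjusted p = 0.0191), with overlap because the caudal libraries were at baseline. Without mesenchyme replicate 2, 3 or 5 the call was lost (values of -2.53 to -1.76 over all libraries left out, highest adjusted p = 0.136). In the same comparison Pax8 fell and Pax9 rose, as given below, which makes 3 of 8 members against 2.4% of all genes. Of the eye and olfactory list 2 genes fell, Rax (-1.94 ± 0.52, adjusted p = 0.0182) and Sp8, a factor of the nasal and forebrain epithelium (-0.52 ± 0.12, adjusted p = 0.00432), and 0 rose, with a median of -0.27 against -0.02 for all genes. Of the Six-Eya-Dach genes Six2 (2.60 ± 0.44, adjusted p = 1.4e-05) and Eya1 (1.19 ± 0.33, adjusted p = 0.0245) rose and 0 fell, with a median of 0.09.

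**Figure D2:**
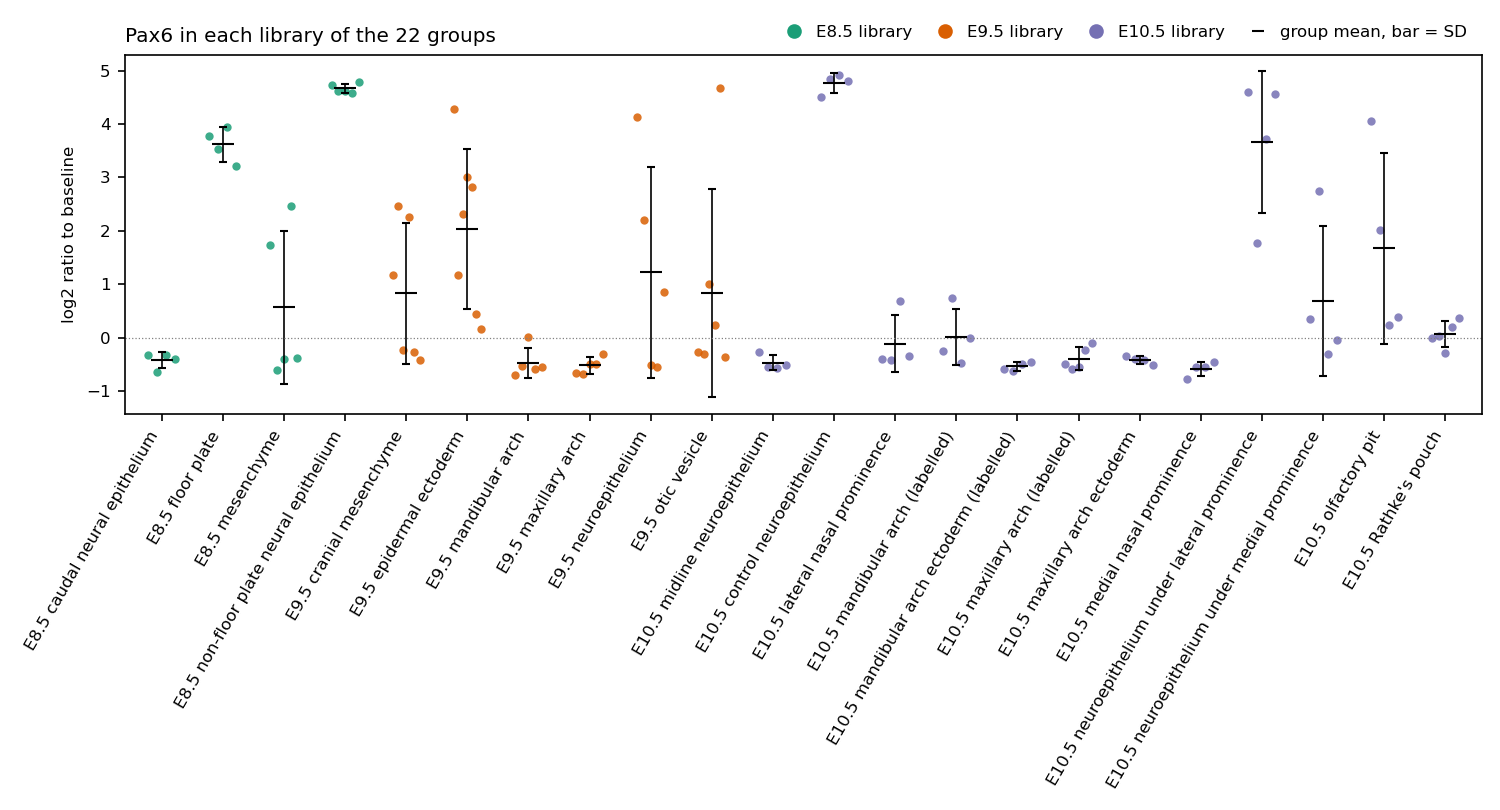
Pax6 log2 ratio to baseline in every library (points, coloured by stage) of the 22 groups, with each group's mean and SD (black). All E8.5 non-floor plate and E10.5 control neuroepithelium libraries lie between 4.5 and 4.92, whereas the groups of E9.5 neuroepithelium, otic vesicle and epidermal ectoderm each range over more than 4 log2 units.

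At E9.5 Pax6 was above the arches in every epidermal ectoderm library. The 7 ectoderm libraries ran from 0.16 through a median of 2.31 to 4.29, and the 10 arch libraries from -0.69 to 0.02, with no overlap (0.943% of genes). The difference was 5.75-fold (2.52 ± 0.51 log2, limma adjusted p = 0.00022). Pax2 and Pax7 also rose, so 3 of 8 members were called where 37% of all genes were. Of the eye and olfactory list, 5 of 11 genes rose and 1 fell, with a median of 0.34 against -0.05 for all genes. The largest were Six3 (2.54 ± 0.33, adjusted p = 3.2e-08), Six6, a factor of the eye and pituitary (1.81 ± 0.49, adjusted p = 0.00346), and the lens gene Foxe3 (0.81 ± 0.18, adjusted p = 0.00065). Of the Six-Eya-Dach genes 3 rose and 2 fell, with a median of 0.11, and besides Six3 and Six6 the largest was Eya3, a phosphatase and co-activator (-1.18 ± 0.36, adjusted p = 0.0085).

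The E9.5 neuroepithelium was not uniform. Its Pax6 log2 ratios were 4.12, 2.20, -0.51, -0.55 and 0.86, and its Six3 log2 ratios 2.35, 2.52, -0.53, -0.62 and -0.65. Replicates 1 and 2, the highest for Pax6, were the only ones with Six3 above baseline. En2, a gene of the midbrain and hindbrain boundary, was near baseline in replicates 1 and 2 and high in the other 3, at 0.03, -0.10, 4.52, 4.15 and 4.68. Which level of the brain each library came from is not in the labels, and its part in the results was not tested.

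Otic vesicle libraries spread as widely. Pax6 log2 ratios there were -0.26, -0.30, 1.01, 0.25, 4.67 and -0.36. Replicates 3 and 5 also had Rax at 4.04 and 5.05 and Epcam at -0.21 and -1.46, whereas the other 4 had Rax at -0.37 to 0.38 and Epcam at 3.66 to 4.16. The otic list, the mean of 5 measured ear genes, was 0.67 and -0.03 in replicates 3 and 5 and 0.98 to 3.12 in the others. No Pax gene was called between otic vesicle and ectoderm (lowest adjusted p = 0.2, 0.391% of genes called) or between otic vesicle and neuroepithelium (lowest adjusted p = 0.435, 0.828% called). Without replicates 3 and 5, Pax6 was lower in the otic vesicle than in ectoderm (-2.20 ± 0.59, limma adjusted p = 0.0419) and Pax8 was higher (1.15 ± 0.27, adjusted p = 0.0101). Replicates 3 and 5 held the highest Pax6 and the lowest Pax8 values of the group. Leaving them out therefore moves both genes in these directions by construction, and the calls are no separate evidence.

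**Figure D3:**
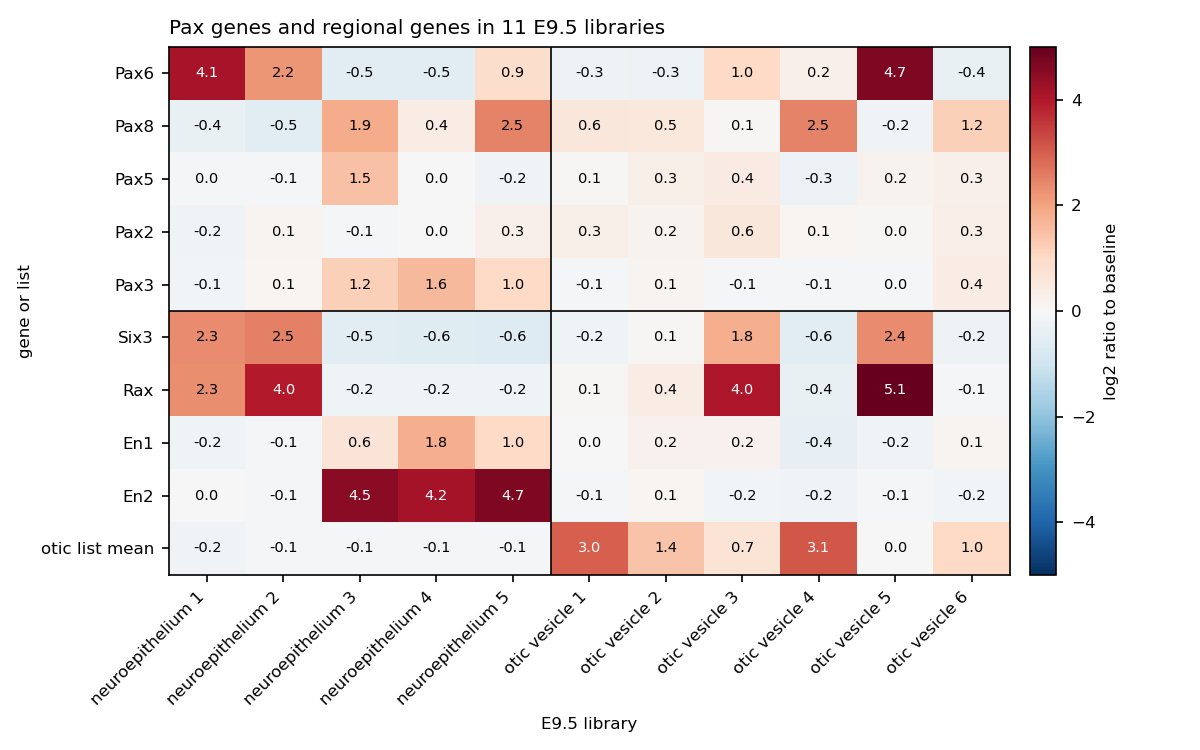
Log2 ratio to baseline (colour and number) of 5 Pax genes, 4 regional genes and the mean of the otic list in the 5 neuroepithelium and 6 otic vesicle libraries of E9.5, in columns. Pax6 is highest in neuroepithelium 1 and otic vesicle 5, which have Six3 at 2.35 and 2.35, and Pax8 is highest in neuroepithelium 5 and otic vesicle 4, each at 2.48.

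In cranial mesenchyme at E9.5, Pax6 log2 ratios were 1.18, 2.47, -0.22, 2.26, -0.27 and -0.41. The mean of 10 neural epithelium markers was 0.26, 0.28 and 0.35 in replicates 1, 2 and 4, where Pax6 was high, and -0.18, -0.70 and -0.20 in the other 3. The part of neural tissue in these values was not tested. Pax6 was not called between arches and cranial mesenchyme or between neuroepithelium and cranial mesenchyme.

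At E10.5 Pax6 set the control neuroepithelium apart from the midline. The control libraries had log2 ratios of 4.5, 4.84, 4.92 and 4.81 and the midline libraries -0.26, -0.54, -0.56 and -0.51, without overlap (3.09% of genes). The difference, 37.5-fold (-5.23 ± 0.74, limma adjusted p = 1.3e-06), is the steepest of any Pax gene in the 23 comparisons, and Pax6 was the 1 member called where 0.471% of all genes were. Six3 was above baseline in all 4 midline libraries, at 1.10 to 2.13. Of the Six-Eya-Dach genes Six2 rose in the midline (2.65 ± 0.59, adjusted p = 0.00752) and 0 fell (median 0.03, all genes 0.03), and of the eye and olfactory genes 0 of 11 were called (median 0.23).

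Libraries of neuroepithelium underneath the nasal prominences ranged from the level of the midline to that of the control. Under the lateral prominence Pax6 log2 ratios were 4.59, 1.77, 3.73 and 4.57, and under the medial prominence 0.36, 2.74, -0.30 and -0.04. Libraries under the lateral prominence were mostly high and those under the medial one mostly low, with overlap. The titles and tissue labels of the latter 4 libraries disagree on which prominence they lay under, and no test was made between these groups. Both groups together were 6.01-fold below the control neuroepithelium (-2.59 ± 0.64, limma adjusted p = 0.0428), again with Pax6 the 1 member called (0.296% of genes). This call was lost when any of 9 of the 12 libraries was left out in turn (values of -2.93 to -2.27, highest adjusted p = 0.167). It was also lost when the 3 groups were fitted alone (adjusted p = 0.842) and when the 4 libraries were counted as lateral. None of the eye and olfactory or Six-Eya-Dach genes was called (medians 0.25 and -0.03, all genes 0.01).

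Against the nasal prominences themselves, the same neuroepithelium had 5.76-fold more Pax6 (2.53 ± 0.52, limma adjusted p = 0.00034). The 8 prominence libraries ranged from -0.78 to 0.69, and 3 of the libraries under the medial prominence lay within that range. Pax3, Pax7 and Pax9 were lower on the neural side, which makes 4 of 8 members called against 20.9% of all genes. Lhx2 rose (2.65 ± 0.46, adjusted p = 1.8e-05) and Foxe3 fell (-0.57 ± 0.19, adjusted p = 0.021) among the eye and olfactory genes (median -0.04, all genes 0.05). Six2 fell (-3.29 ± 0.42, adjusted p = 6.3e-09) and no gene rose among the Six-Eya-Dach genes (median -0.11).

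In the placodes of E10.5, the thickened ectoderm that makes sense organs and the pituitary, Pax6 varied. Olfactory pit log2 ratios were 4.06, 2.01, 0.24 and 0.39, Rathke's pouch ranged from -0.28 to 0.37 and maxillary arch ectoderm from -0.50 to -0.33. All 4 pit libraries lay above all 4 maxillary ectoderm libraries (5.5% of genes did not overlap), yet the difference did not pass the test (2.09 ± 0.74, limma adjusted p = 0.21), and 0 members were called where 0.692% of genes were. Rathke's pouch also lay above maxillary arch ectoderm in every library (3.55% of genes did not overlap) without a call. No member was called between the pit and the nasal prominences either (lowest adjusted p = 0.138, for Pax6, with 0.913% of genes called).

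Across stages, Pax6 in E9.5 neuroepithelium was lower than in the E8.5 non-floor plate epithelium and in the E10.5 control neuroepithelium. It was 10.9-fold below the former (-3.44 ± 0.66, limma adjusted p = 0.00049; 1 member called, 1.06% of genes), and the latter was 11.6-fold above it (3.54 ± 0.70, adjusted p = 0.0017; 1 member called, 0.426% of genes). The libraries did not overlap in either (3.89% and 2.89% of genes). The SE rests on a spread shared by all groups, and in E9.5 neuroepithelium the SD of Pax6 was 1.98, the largest of the 22 groups. With the compared groups fitted alone both calls were lost (adjusted p = 0.101 and 0.381). In the first of these comparisons Rax (-3.49 ± 0.62, adjusted p = 0.00014) and Six3 (-1.56 ± 0.42, adjusted p = 0.0408) fell and no gene rose among the eye and olfactory genes (median -0.12, all genes -0.02). Six3 was also the 1 called gene among the Six-Eya-Dach genes (median -0.10). In the second comparison none of either list was called (medians -0.26 and 0.00, all genes -0.01).

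The excess of Pax6 over mesenchyme was larger in E8.5 non-floor plate epithelium than in E9.5 neuroepithelium. It did not hold for all neural tissue of E8.5, as the caudal epithelium had a mean of -0.42 and the mesenchyme 0.57. The change in that difference, non-floor plate epithelium over mesenchyme at E8.5 against neuroepithelium over cranial mesenchyme at E9.5, was -3.71 ± 0.91 (limma adjusted p = 0.0348), with Pax6 the 1 member called among 0.366% of genes. Leaving out any of 13 of the 21 libraries in turn ended this call (values of -4.43 to -3.26, highest adjusted p = 0.146), and so did fitting the 4 groups alone (adjusted p = 0.52).

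Ordered by group mean, Pax6 was highest in E10.5 control neuroepithelium (4.77 ± 0.18, SD, n = 4), followed by E8.5 non-floor plate epithelium (4.67 ± 0.09, n = 5), E10.5 neuroepithelium under the lateral prominence (3.67 ± 1.33, n = 4) and E8.5 floor plate (3.62 ± 0.32, n = 4). The next group, E9.5 ectoderm (2.03 ± 1.5, n = 7), lay 1.58 below the floor plate, a gap larger than either SD. All other neighbours in the order differed by less than the larger of their SDs.

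Pax8, a gene of the hindbrain boundary, ear and later the thyroid and kidney, was high in the caudal part of the E8.5 neural epithelium. Its log2 ratios there were 3.00, 3.48, 4.35 and 2.75, whereas the 5 non-floor plate libraries ranged from -0.35 to 0.21. No library of any other group reached the lowest of these 4. Pax8 was 11.6-fold higher (3.53 ± 0.30 log2, limma adjusted p = 2.4e-15). Compared with the 3 neural groups together, E8.5 mesenchyme was 2.08-fold lower for Pax8 (-1.05 ± 0.24, limma adjusted p = 0.00254). This difference came from the caudal group, whose mean was 3.40. The mesenchyme mean of -0.05 was not below those of non-floor plate epithelium (-0.14) and floor plate (-0.25). Mesenchyme libraries, at -0.41 to 0.65, overlapped those of the floor plate and non-floor plate epithelium.

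Genes of the midbrain and hindbrain boundary rose with Pax8 in caudal epithelium. Of 10 measured, 7 rose and 1 fell, with a median of 2.75 against 0.02 for all genes. The signals Fgf17 (3.43 ± 0.84, adjusted p = 0.0127) and Wnt1 (3.40 ± 0.44, adjusted p = 4.4e-08) and the homeobox gene En2 (3.16 ± 0.39, adjusted p = 8.5e-09) had the largest differences. The forebrain and midbrain gene Otx2 fell (-2.10 ± 0.57, adjusted p = 0.0352). It was also the 1 gene of 10 called in a list of otic placode genes (median -0.18), which is not the otic list averaged per library above. In the mesenchyme comparison Otx2 fell as well (-1.83 ± 0.45, adjusted p = 0.00715), as the 1 boundary gene called (median -0.60, all genes -0.02), and in the otic placode list it was joined by its relative Otx1 (-0.90 ± 0.26, adjusted p = 0.032; list median 0.00).

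**Figure D4:**
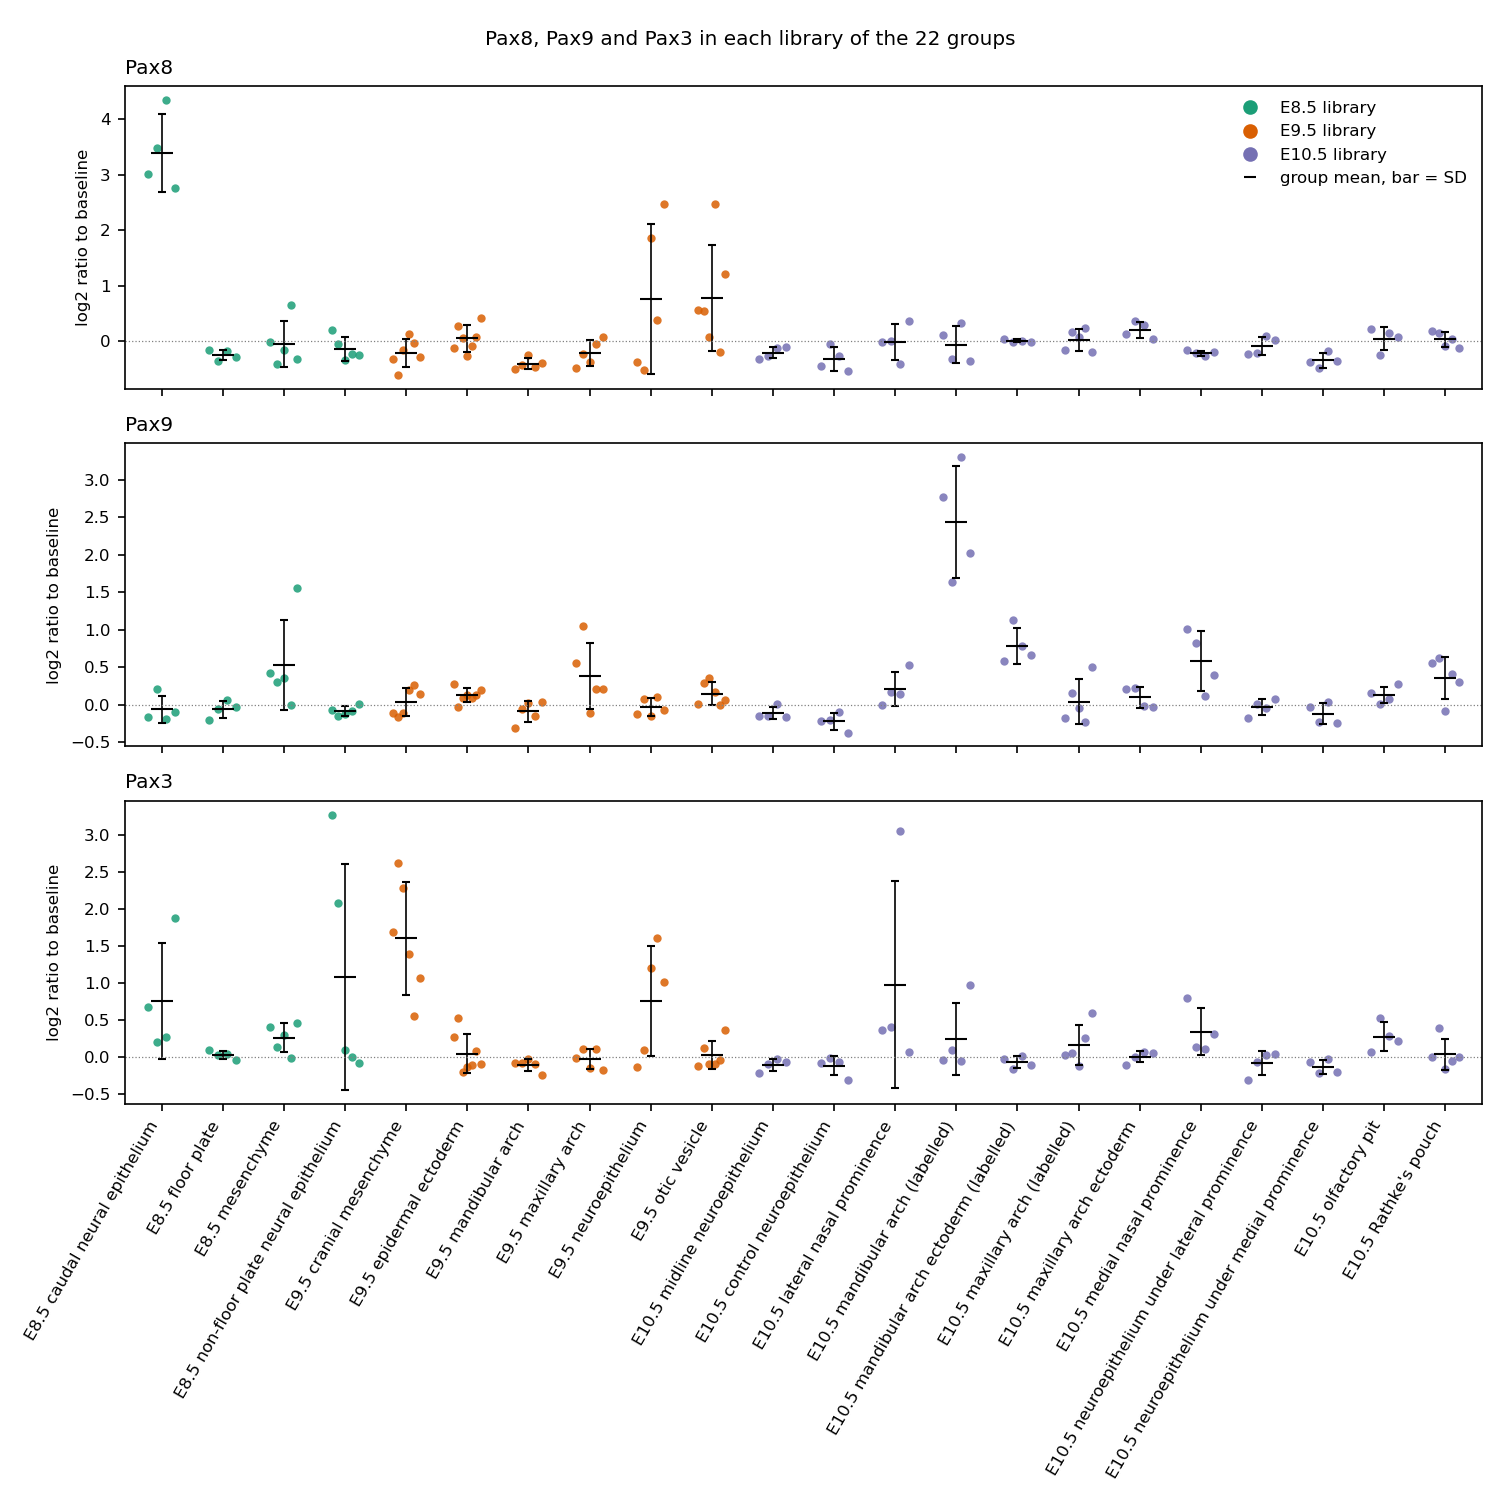
Log2 ratio to baseline of Pax8, Pax9 and Pax3 in every library (points, coloured by stage) of the 22 groups, with group means and SD (black). The 4 caudal neural epithelium libraries stand alone for Pax8 and the 4 libraries labelled E10.5 mandibular arch lie at 1.64 or above for Pax9, while Pax3 has a few high libraries in several groups.

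At E9.5 Pax8 was raised in some neuroepithelium and otic vesicle libraries. Neuroepithelium log2 ratios were -0.38, -0.52, 1.86, 0.38 and 2.48, the low values being the replicates with high Six3 and Pax6. Otic vesicle log2 ratios were 0.57, 0.54, 0.07, 2.48, -0.19 and 1.20, lowest in replicates 3 and 5. The otic marker Oc90 was 3.41 in replicate 4, the highest for Pax8, but 2.12 in replicate 1 and -0.30 to 0.06 in replicates 2, 3, 5 and 6. Against cranial mesenchyme, Pax8 in neuroepithelium narrowly missed the threshold (0.98 ± 0.27, limma adjusted p = 0.0502). No member was called in that comparison, in which 1.15% of genes were. With weights for array quality the value was 1.41 (adjusted p = 2.9e-05), and without neuroepithelium replicate 1 or 2 it was 1.26 (adjusted p = 0.00386) or 1.30 (adjusted p = 0.00209). Replicates 1 and 2 held the lowest Pax8 values of their group, so leaving out either raises the difference. With quantile normalization or the groups fitted alone no member was called. At E10.5 all 12 group means of Pax8 lay between -0.35 and 0.20.

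Pax5 and Pax2, the other members of that subfamily, stayed close to baseline. Pax5 exceeded a log2 ratio of 1 in 2 libraries, E8.5 caudal epithelium replicate 2 (1.06, the others -0.11 to 0.11) and E9.5 neuroepithelium replicate 3 (1.46, the others -0.16 to 0.03). Pax8 in those libraries was 3.48 and 1.86. The highest Pax8 values of the same groups, 4.35 and 2.48, were in other libraries, with Pax5 at most 0.11 and 0.03. Group means of Pax5 ranged from -0.15 to 0.34 and no comparison was called.

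For Pax2, which marks the otic vesicle, otic libraries had log2 ratios of 0.28, 0.19, 0.56, 0.10, 0.04 and 0.35, a mean of 0.25 ± 0.19 (SD, n = 6). Its highest value in any library was 0.89, in Rathke's pouch. With no detection value, little change in Pax2 cannot be told apart from a probe set that responds weakly. Pax2 rose by 0.32 ± 0.10 (1.25-fold, limma adjusted p = 0.00892) in E9.5 epidermal ectoderm against the arches, a call that was lost without ectoderm replicate 7 (0.22, adjusted p = 0.0866), a widely spread array, and with the compared groups fitted alone (adjusted p = 0.0656). The otic placode and boundary lists in that comparison had 5 rises and 1 fall of 10 (median 0.47, all genes -0.05) and 4 rises and 0 falls of 10 (median 0.27), where 37% of all genes were called. Otx2 (1.66 ± 0.42, adjusted p = 0.00211) was in both. The others with the largest differences were Sox9, a cartilage and ear factor (-1.52 ± 0.25, adjusted p = 6.6e-06), the ear gene Hmx3 (0.94 ± 0.20, adjusted p = 0.00044), Fgf17 (1.60 ± 0.62, adjusted p = 0.0343) and Fgf8 (1.08 ± 0.38, adjusted p = 0.0203).

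Pax3, a gene of neural crest and dorsal neural tube, was most evenly raised in E9.5 cranial mesenchyme, with log2 ratios of 1.70, 2.62, 2.28, 1.40, 0.56 and 1.08. The arch libraries of the same stage ranged from -0.24 to 0.12, below every cranial library (0.11% of genes did not overlap). Arches were 3.16-fold lower (-1.66 ± 0.28 log2, limma adjusted p = 0.0001). Pax3 was the 1 member called there, among 0.933% of genes. Of 11 measured crest and dorsal neural genes 2 rose and 1 fell in the arches, with a median of -0.09 against 0.03 for all genes. Snai2, a gene of migrating crest (1.72 ± 0.44, adjusted p = 0.0369), and the arch homeobox gene Msx2 (1.67 ± 0.33, adjusted p = 0.00164) rose, whereas the crest factor Tfap2b (-2.49 ± 0.54, adjusted p = 0.00688) fell. Six2 fell as well (-3.21 ± 0.43, adjusted p = 3e-07), as the 1 called gene of 11 in the Six-Eya-Dach list (median 0.11).

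Cranial mesenchyme at E9.5 also stood above E8.5 mesenchyme, where Pax3 log2 ratios were 0.41, 0.15, 0.31, 0.00 and 0.47. All 6 later libraries lay above all 5 earlier ones (2.47% of genes did not overlap). The difference was 2.53-fold (1.34 ± 0.33, limma adjusted p = 0.0151; 1 member called, 1.53% of genes). It was lost without E8.5 mesenchyme replicate 4 or cranial mesenchyme replicate 2 or 3 (values of 1.14 to 1.55 over all libraries left out, highest adjusted p = 0.0605) and with both groups fitted alone (adjusted p = 0.162). Of the crest and dorsal neural genes 4 fell and 0 rose, with a median of -0.26 against -0.04 for all genes. The largest were Snai2 (-2.16 ± 0.52, adjusted p = 0.0105), Msx2 (-1.59 ± 0.39, adjusted p = 0.0128) and Sox10, a factor of crest and its glia (-1.41 ± 0.36, adjusted p = 0.0195). Six2 rose (2.54 ± 0.50, adjusted p = 0.00085) and no Six-Eya-Dach gene fell (median -0.07).

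Elsewhere Pax3 was high in some libraries of a group and near baseline in the others. In the E8.5 non-floor plate epithelium log2 ratios were 3.27, 2.09, 0.10, 0.01 and -0.07, high in replicates 1 and 2 and at baseline in the other 3. E9.5 neuroepithelium had -0.13, 0.10, 1.20, 1.61 and 1.01, high in the replicates with high En2. The lateral nasal prominence at E10.5 had 0.37, 0.42, 3.06 and 0.07, high in replicate 3. Caudal epithelium at E8.5 had 0.68, 0.20, 0.27 and 1.88.

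Between neuroepithelium underneath the prominences and the prominences, Pax3 was 1.69-fold lower on the neural side (-0.76 ± 0.28, limma adjusted p = 0.0394). The neural libraries ranged from -0.31 to 0.04 and the prominence libraries from 0.07 to 3.06, which do not overlap (1.59% of genes). Without lateral prominence replicate 3 the value was -0.41 (adjusted p = 0.219), and leaving out any of 7 of the 16 libraries in turn ended the call, as did fitting the compared groups alone (adjusted p = 0.136). From E9.5 cranial mesenchyme to the nasal prominences of E10.5 Pax3 differed by -0.94 ± 0.30 (adjusted p = 0.053), and without lateral prominence replicate 3 by -1.29 (adjusted p = 0.00152). No member was called in that comparison, where 3.96% of genes were.

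Pax7, the partner of Pax3, was highest in the lateral nasal prominence, at 0.43, 0.51, 0.85 and 0.49. These values are small, and no library in the series exceeded a Pax7 log2 ratio of 1. Neuroepithelium under the prominences was 1.32-fold lower than the prominences (-0.40 ± 0.11, limma adjusted p = 0.0061). E9.5 ectoderm was 1.24-fold above the arches (0.32 ± 0.11, adjusted p = 0.0173), a call lost without ectoderm replicate 7 (0.22, adjusted p = 0.13), whose Pax7 log2 ratio of 0.79 stood above the others (0.02 to 0.20). With the compared groups fitted alone the adjusted p was 0.0811. In that comparison, where 37% of all genes were called, Snai2 (-2.62 ± 0.42, adjusted p = 6.5e-06) and Sox9 fell. No gene rose among the crest and dorsal neural genes (median -0.22, all genes -0.05). Against the prominences the neural side had 6 falls and 1 rise in the same list (median -0.51, all genes 0.05), where 20.9% of all genes were called. The largest were Msx1, a homeobox gene of facial mesenchyme (-3.92 ± 0.43, adjusted p = 1e-10), Snai2 (-2.35 ± 0.43, adjusted p = 5.4e-05) and the neural gene Zic1, which rose (1.46 ± 0.25, adjusted p = 1.8e-05).

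Pax9, needed for teeth, palate and pharyngeal pouch derivatives, was highest in the libraries labelled E10.5 mandibular arch, at 2.77, 1.64, 3.30 and 2.02. The 5 libraries labelled maxillary arch had -0.18, 0.16, -0.05, -0.23 and 0.51, all lower (2.83% of genes did not overlap). The difference was 5.25-fold (2.39 ± 0.19 log2, limma adjusted p = 5.7e-17), with Pax9 the 1 member called among 0.772% of genes. With the 2 groups fitted alone the adjusted p was 0.137. As given above, the first set had Alx1 and Hand2 at the levels of the lateral nasal prominence, which went against its label. In the second set 4 libraries had high Epcam, but this 1 gene also exceeded a log2 ratio of 1 in 3 of the 4 libraries of the first set. Hand2 was 0.12 to 2.13 in the second set and -0.51 to 0.14 in the first. None of 11 measured pouch and skeletal precursor genes was called (median -0.07, all genes 0.00), nor any Six-Eya-Dach gene (median 0.15).

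In the arches of E9.5 Pax9 did not separate mandibular (-0.31, -0.05, 0.02, -0.15 and 0.04) from maxillary libraries (0.56, 1.04, -0.11, 0.21 and 0.21) by the test. No member was called in that comparison (lowest adjusted p = 0.827, 0.0702% of genes called). The mandibular against maxillary difference by label differed between the stages by 2.86 ± 0.26 (7.28-fold, limma adjusted p = 7.9e-14), with Pax9 the 1 member called among 0.0652% of genes. None of the pouch and skeletal precursor genes or the Six-Eya-Dach genes was called there (medians -0.04 and 0.23, all genes -0.01). The Pax9 call was lost when the compared groups were fitted alone with the replicate number. Hand2 was 1.84 to 4.22 in the E9.5 mandibular libraries but -0.51 to 0.14 in those labelled mandibular arch at E10.5. The stages may therefore not compare the same tissues, which was not tested.

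Libraries labelled E10.5 mandibular arch ectoderm had Pax9 log2 ratios of 0.58, 1.12, 0.78 and 0.66, the medial nasal prominence 1.00, 0.82, 0.12 and 0.39, and the lateral nasal prominence -0.01, 0.16, 0.15 and 0.53. All 3 sets were below the libraries labelled mandibular arch. The pooled nasal prominences were 1.39-fold above the neuroepithelium underneath them (neural side -0.47 ± 0.14, limma adjusted p = 0.0105), where 20.9% of all genes were called. Of the pouch and skeletal precursor genes 4 were lower on the neural side and 0 higher (median -0.19, all genes 0.05), led by Msx1, the signal Bmp4 (-3.37 ± 0.64, adjusted p = 0.00011) and Osr1, a factor of tongue and limb mesenchyme (-1.02 ± 0.29, adjusted p = 0.0087).

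At E8.5 Pax9 was 1.51-fold higher in mesenchyme than in the neural epithelia (0.60 ± 0.15, limma adjusted p = 0.00724). The mesenchyme libraries had 0.42, 0.31, 0.36, 0.00 and 1.55, and the difference rested on replicate 5, without which it was 0.34 (adjusted p = 0.392). With the compared groups fitted alone the adjusted p was 0.117. In the list of pouch and skeletal precursor genes 2 rose and 1 fell (median 0.14, all genes -0.02), namely Msx1 (2.31 ± 0.45, adjusted p = 0.0003), the pouch gene Ripply3 (1.05 ± 0.22, adjusted p = 0.00112) and the signal Fgf3 (-1.16 ± 0.27, adjusted p = 0.00312).

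Pax1, the partner of Pax9, was called in no comparison. Its highest group mean was in Rathke's pouch, with log2 ratios of 1.43, 1.48, 0.00, 0.62 and 0.33 (mean 0.77 ± 0.66, SD, n = 5). Replicates 2 and 4 of that group are widely spread arrays. Against maxillary arch ectoderm the difference was 0.67 ± 0.23 (limma adjusted p = 0.107), and 0 members were called where 1.63% of genes were. Without replicate 3 it was 0.86 (adjusted p = 0.0185). Against the olfactory pit it was 0.67 ± 0.23 (adjusted p = 0.153; 0.612% of genes called) and without replicate 3 it was 0.86 (adjusted p = 0.0208). Replicate 3 held the lowest Pax1 value of Rathke's pouch, so leaving it out enlarges both differences. In the full fit no Pax gene was called in these comparisons. The other comparisons without a called member were those of medial against lateral nasal prominence (lowest adjusted p = 0.469, 0.115% of genes called), where the Pax6 libraries did not overlap (-0.78 to -0.45 against -0.41 to 0.69; 3.73% of genes), and of the prominences against the libraries labelled maxillary arch (0.344, 0.802%).

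**Figure D5:**
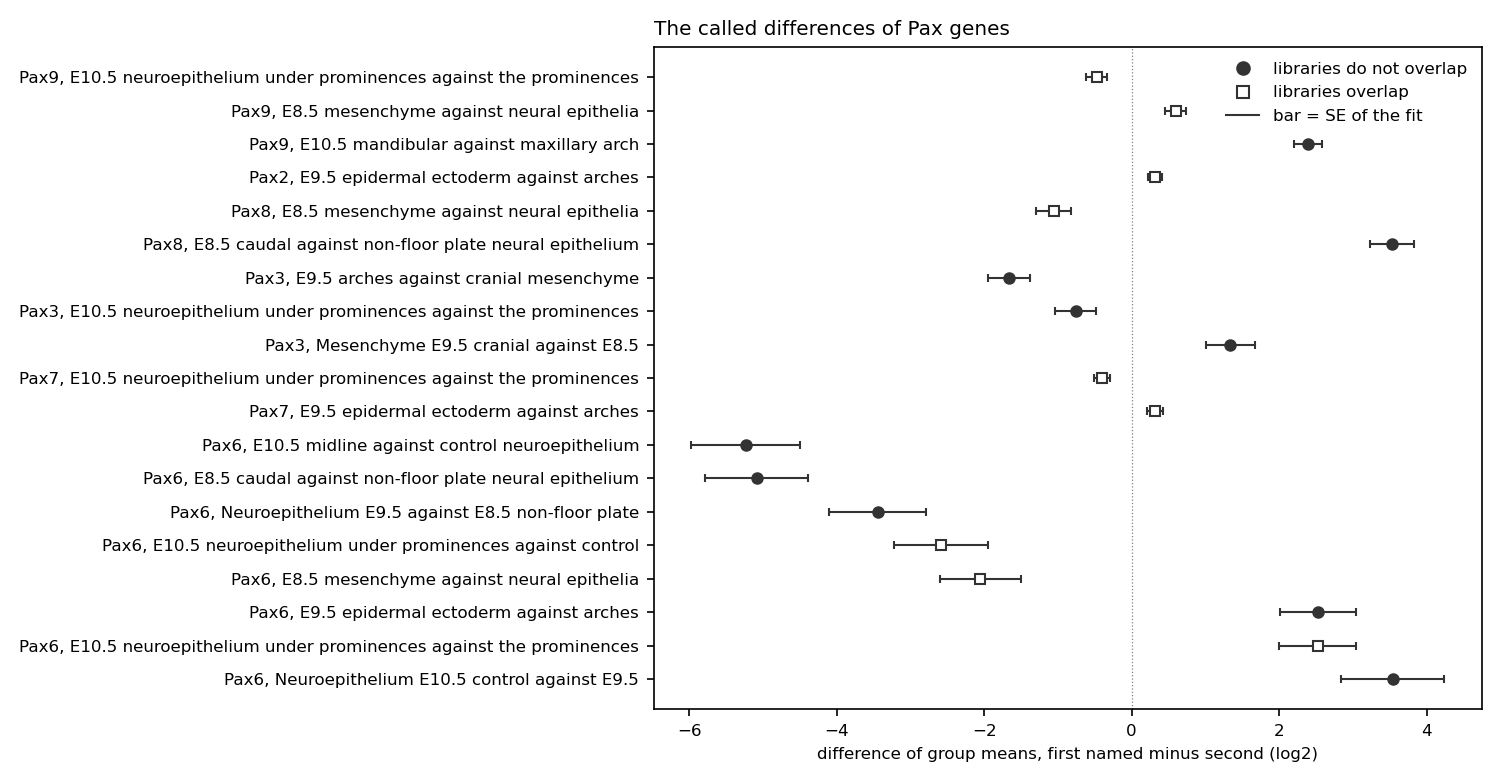
The 19 called differences of Pax genes in 23 comparisons (difference of group means on the log2 scale, first group minus second, bar = SE of the fit); filled circles mark comparisons whose libraries do not overlap and open squares those that do. Pax6 spans -5.23 to 3.54, whereas the called differences of Pax2 and Pax7 are at most 0.40 in size.

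A test that all group means of a stage are equal gave 3 members at E8.5, Pax6 (limma F test, adjusted p = 1.1e-08), Pax8 (1.4e-17) and Pax9 (0.0401), where 4.24% of genes were called. The call of Pax9 was lost without mesenchyme replicate 5 (adjusted p = 0.759), without any of 7 other E8.5 libraries (0.0507 to 0.0629), with the E8.5 groups fitted alone (0.253) and after quantile normalization (0.0612). At E9.5 it gave 4, Pax2 (0.0113), Pax3 (9.2e-05), Pax6 (0.00649) and Pax8 (0.00057), against 17.7% of genes. At E10.5 it gave 5, Pax1 (0.0132), Pax2 (0.00071), Pax6 (2.5e-10), Pax7 (0.00073) and Pax9 (4.7e-19), against 34% of genes. Without the widely spread arrays Pax2 at E9.5 (adjusted p = 0.0669) and Pax1 at E10.5 (0.0751) lost their calls. Pax1 also lost its call without Rathke's pouch replicate 1 (0.0607) or 2 (0.0628). In the full fit Pax6 was called at all 3 stages and Pax5 at none. With the groups of a stage fitted alone, the calls of Pax6 (0.16), Pax8 (0.118) and Pax2 (0.0772) at E9.5 and of Pax1 at E10.5 (0.0757) were lost, and Pax8 was called at E10.5 (0.0293).

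The genes most like each member over the 22 group means were sought among all genes tested, as a description. For Pax8 they were the boundary homeobox gene En1 (r = 0.95), Klhl14 (0.945) and Gpnmb (0.92), and En1 had log2 ratios of 3.17, 2.78, 3.64 and 2.26 in the caudal epithelium libraries. Pax6 had lower best values, with Lmo3 (0.81), Fam184a (0.80) and the forebrain and olfactory factor Fezf1 (0.79). For Pax3 they were the retinoic acid receptor gene Rarb (0.74), Car12 (0.73) and Nmu (0.73), and for Pax9 P2ry6 (0.91), Ghrl (0.89) and Acr (0.88). The 4 members near baseline had Mir99b (0.95), Zfp36l2 (0.94) and Krt222 (0.93) for Pax1, Foxo6 (0.94), Pcdh15 (0.94) and Synm (0.93) for Pax2, Fam184b (0.91), Irx2 (0.83) and Il17b (0.81) for Pax5, and Prp2 (0.92), Slc16a9 (0.91) and Ip6k3 (0.91) for Pax7. These values rest on few high groups for Pax8 and Pax9, and for the members near baseline on small differences that move with the widely spread arrays.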

How the data were processed

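Per the labels' protocols, RNA of laser-captured regions was amplified with a NuGEN Ovation Pico kit, biotin-labelled and hybridised to Mouse Gene ST arrays. The submitters' processing notes name RMA and mm9, with no version given. The deposited values are ratios per probe set; what they are relative to is not stated, and the values show that the median over 21 libraries equals 1. The planned tests assumed log2 levels; log2 of the deposited ratio was used in their place, and with no detection value deposited no filter on low signal was possible. Of 35557 probe sets 28856 have values, and 21789 of these carry 1 symbol. Of several probe sets for a gene (999 genes) that of highest mean log2 ratio was kept, which gave 19938 genes.

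Group means over the grouped libraries (80 residual degrees of freedom) were compared with limma 3.58.1 in R 4.3.3, after a check on simulated data, and p-values were adjusted by Benjamini-Hochberg within each comparison. Medians of the log2 ratios lay between -0.1 and 0.081 over arrays and their SD between 0.391 and 1.334. The number of arrays in a group limits the precision. All 8 members are named. For each, the 3 genes closest in their group means are named, predicted genes and olfactory or vomeronasal receptors passed over. Of each gene list, up to 3 called genes with the largest differences are named, where a Pax gene it goes with was called. En1, En2, Six3, Rax, Oc90, Epcam, Alx1 and Hand2 are also given per library, chosen after their values were seen. Members, lists and tests were chosen with earlier results of these data known. The 4 E10.5 neuroepithelium libraries with conflicting labels were grouped by their tissue label, as under the medial prominence, and numbered by accession. Alternatives were quantile normalization, array weights, the mean of all probe sets, groups fitted alone with and without the replicate number, and libraries left out.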

Additional observations from a re-analysis of the deposited data

Results flagged for a closer look

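Within groups of 4 to 7 libraries, 15 of 176 sets of values held a library far from the others by Dixon's gap test, 14 of them above the others; chance alone gives about 1 in 20. For Pax6 these were otic vesicle replicate 5 at E9.5 (log2 ratio 4.67, the others -0.36 to 1.01), mandibular arch replicate 4 at E9.5 (0.02, the others -0.69 to -0.52), midline neuroepithelium replicate 1 (-0.26, the others -0.56 to -0.51) and lateral nasal prominence replicate 3 (0.69, the others -0.41 to -0.34) at E10.5. That lateral prominence library also stood out for Pax3 (3.06, the others 0.07 to 0.42). Pax3 was low in E9.5 mandibular arch replicate 6 (-0.24, the others -0.08 to -0.03) and high in replicate 4 labelled E10.5 mandibular arch (0.97, the others -0.05 to 0.10).

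Replicate 5 labelled E10.5 maxillary arch stood out for both Pax1 (1.06, the others -0.17 to 0.08) and Pax7 (0.49, the others 0.00 to 0.11), and in it Epcam was -1.44 against 2.40 to 3.59 in the others. Pax7 in E9.5 epidermal ectoderm replicate 7 was 0.79 (the others 0.02 to 0.20), on a widely spread array. Pax5 was 1.46 in E9.5 neuroepithelium replicate 3 (the others -0.16 to 0.03), and Pax9 was 1.55 in E8.5 mesenchyme replicate 5 (the others 0.00 to 0.42), where Rax was 2.63. The remaining 3 deviations were small, namely Pax2 in E8.5 non-floor plate epithelium replicate 2 (0.11, the others -0.11 to -0.07), Pax8 in replicate 1 labelled E10.5 mandibular arch ectoderm (0.05, the others -0.01 to 0.00) and Pax9 in E10.5 midline neuroepithelium replicate 3 (0.01, the others -0.16 to -0.15).

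For a pair of genes a contrast differed between stages by a limma test of the difference. The neural against mesenchyme difference of Pax6, taken at E8.5 from the non-floor plate epithelium, changed by -3.71 ± 0.91 from E8.5 to E9.5 (adjusted p = 0.0348). The labelled mandibular against maxillary difference of Pax9 changed by 2.86 ± 0.26 from E9.5 to E10.5 (adjusted p = 7.9e-14).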

How the results depend on the processing

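No call of a Pax gene reversed. Over the 21 called values of single genes, quantile normalization and the mean of all probe sets lost 0, array weights 1, leaving out the 11 widely spread arrays 4, groups fitted alone 10 and the replicate block 15; in refits without 1 library the called values kept the call 264 times and lost it 38 times. The counts of members called that moved by more than 1.5 times, or from or to 0, were as follows. With array weights they were 1 for E9.5 neuroepithelium against cranial mesenchyme and for E10.5 prominences against E9.5 cranial mesenchyme (0 in the full fit), 2 for E9.5 arches against cranial mesenchyme, both neuroepithelium stage comparisons and mesenchyme E9.5 against E8.5 (1 each), and 3 for the E8.5 to E9.5 change in the neural against mesenchyme difference (1), called the neural-mesenchyme change below. Quantile normalization gave 5 for E9.5 ectoderm against arches (3), 2 for neuroepithelium E10.5 against E9.5 (1) and 1 for prominences against cranial mesenchyme (0). The probe-set mean gave 1 for neuroepithelium against cranial mesenchyme (0), and leaving out otic replicates 3 and 5 gave 2 for otic vesicle against ectoderm (0). Without the widely spread arrays, ectoderm against arches had 1 (3), and E10.5 neuroepithelium under the prominences against control and the neural-mesenchyme change had 0 (1 each); the former had 0 also with its 4 doubtful libraries counted as lateral. With the groups fitted alone 0 remained (1 each) for neuroepithelium under the prominences against control, labelled mandibular against maxillary arch, both neuroepithelium stage comparisons, mesenchyme E9.5 against E8.5 and the neural-mesenchyme change, and 1 (4) for the F test at E9.5.

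In 0 of 23 comparisons did every same-numbered pair of libraries correlate above 0.1 in its deviations from the group means (range -0.39 to 0.69). This rule is strict and cannot exclude that some numbers pair libraries. For E9.5 arches against cranial mesenchyme the median correlation was 0.19 in same-numbered pairs and -0.06 in other pairs. For labelled E10.5 mandibular against maxillary arch it was -0.16 and 0.05. With the replicate block, fitted on the compared groups alone and without the medial neuroepithelium, the count was 1 for caudal against non-floor plate epithelium (2), mesenchyme against neural epithelia (3), ectoderm against arches (3), and neuroepithelium against prominences (4). Under that block it was 0 (1 each) for neuroepithelium against control, labelled mandibular against maxillary arch, both neuroepithelium stage comparisons, mesenchyme E9.5 against E8.5 and both changes between stages, and the F tests gave 1 (4) at E9.5 and 3 (5) at E10.5. Leaving out 1 library at a time, the counts that moved as far ranged from 1 to 3 for E8.5 mesenchyme against neural epithelia, 1 to 4 for ectoderm against arches, 0 to 2 for Rathke's pouch against maxillary ectoderm and the neural-mesenchyme change, and 1 to 2 for both neuroepithelium stage comparisons. They ranged from 0 to 1 for E9.5 neuroepithelium against cranial mesenchyme, neuroepithelium under the prominences against control, Rathke's pouch against the pit and both mesenchyme stage comparisons. The 4 libraries labelled mandibular arch ectoderm were not left out in turn. A filter on low signal and a pseudocount were not run, since the table holds ratios with no detection value. Adding the conflicting E9.5 library to either group changed no Pax call. Array weights gained Pax8 calls in both neuroepithelium stage comparisons (1.29, adjusted p = 0.00017 for E9.5 against E8.5; -1.50, adjusted p = 0.00079 for E10.5 against E9.5). The cause of these changes was not tested.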

Other observations

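The E9.5 library that belongs to no group, titled mandibular arch and labelled epidermal ectoderm, had log2 ratios of -0.55 for Pax6, 0.59 for Pax9 and -0.13 for Pax3, and of -0.36 to 0.22 for the other 5 members. It had Epcam at 2.13, the mesenchyme list at 1.59 and the surface ectoderm list at 1.21.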
